A study of Mus musculus with 10 samples.

Results

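Cux2, Fezf2, Neurod2, Neurod6, Tbr1, Bcl11b, Emx1 and Mef2c encode transcription factors that shape the projection neurons of the cerebral cortex. Their probes were taken through the RefSeq accession of the probe, with no measured value used in the choice. By this route the arrays carried 10 probes for these 8 genes, of 41174 probes in all. Of these, 27198 could be named and covered 18539 genes. Neurod2 and Bcl11b had a pair of named probes each, and the other 6 genes had a single one. Probes without a RefSeq accession were not named, so further probes of these genes may exist on the array.

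The arrays came from a study of a fish oil enriched diet (FD) and a standard lab diet (SD) in mouse brain. The animals were male C57BL/6J mice, which entered at 3 weeks of age, ate their diet for 20 weeks and were 5 months old when the left hemibrain was taken. RNA of 10 animals, labeled with Cy-5, was hybridized on 10 dual dye arrays against another RNA labeled with Cy-3. The diet of each array was not settled: the diet entry of the labels gives FD for every Cy-5 sample, their description calls the same samples controls, and the methods give 4 FD and 3 SD arrays. No array was therefore assigned to a diet, and FD was not compared with SD. The Cy-3 RNA is pooled hemibrain from SD mice in the labels and a commercial reference RNA in the methods, and this was not settled either. Of 17654 genes with a value on every array, 16.2% were at least 2-fold higher in Cy-5 throughout and 15.5% at least 2-fold lower. The identity of the Cy-3 RNA was not tested.

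The cortex is built by excitatory projection neurons in layers and by inhibitory interneurons that migrate in from elsewhere. Projection neurons arise from progenitors of the dorsal telencephalon and pass through shared early factors before each layer takes on its own program. Deep layer cells send axons out of the cortex to thalamus, brainstem and spinal cord, and upper layer cells connect cortical areas with each other. In the adult the same factors remain as markers of these cells, and some of them also work in striatum, hippocampus, vessels or immune cells. A hemibrain holds all of these tissues, so in these data fewer cells of a type and less RNA per cell cannot be told apart.

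Neurod2 and Neurod6 are close relatives among the members, and the 250 bases before their start sites are printed to set the promoters of this pair side by side. The sequences are from RefSeq on GRCm38.p6, 5′ to 3′ on the strand of the gene, at chr11:98329646-98329895 (minus strand) for Neurod2 and chr6:55681264-55681513 (minus strand) for Neurod6. Capitals mark CAGATG, a DNA word bound by factors of the NEUROD type, where a search of both strands found it.
Neurod2: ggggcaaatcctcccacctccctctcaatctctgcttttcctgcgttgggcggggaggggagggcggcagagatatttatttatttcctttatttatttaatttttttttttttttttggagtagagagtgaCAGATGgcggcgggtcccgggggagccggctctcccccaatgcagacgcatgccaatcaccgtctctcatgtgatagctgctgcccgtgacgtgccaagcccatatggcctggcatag
Neurod6: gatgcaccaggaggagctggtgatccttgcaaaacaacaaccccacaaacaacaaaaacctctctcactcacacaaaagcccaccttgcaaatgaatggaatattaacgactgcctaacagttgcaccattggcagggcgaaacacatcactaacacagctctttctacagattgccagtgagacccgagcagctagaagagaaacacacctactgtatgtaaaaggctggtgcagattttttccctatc
The Neurod2 window held the word once and had 52.8% G and C bases. The Neurod6 window held none and had 46.0%, against a median of 52.4% over all promoters. The table of promoters held 11 windows for the 8 genes, of 32851 windows searched. CAGATG was in 3 of the 11, those of Cux2, Neurod2 and Mef2c, and in 14.4% of all windows. TAATTA, the core of many homeodomain sites, was in 2 of the 11, those of Tbr1 and Mef2c, and in 4.84% of all. CAGCTG (13.0% of all windows), GGTGTGA of T-box sites (3.33%) and the MEF2 site (0.508%) were in 0 of the 11. A match is a description of letters, and no factor's binding was measured here.

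Every member was higher in hemibrain RNA than in the reference on every array. The measure is the log2 ratio of the processed Cy-5 signal over the processed Cy-3 signal, where 1 is a 2-fold difference. All 10 member probes reached at least 2-fold on each of the 10 arrays, against 12.4% of the 40060 probes with a value on every array. By gene, with the brightest probe in Cy-5 standing for the gene, all 8 members did so against 16.2% of 17654 genes, and 0 were lower by that size against 15.5%. Of the 100 member values, 90 reached 4-fold, and 8 of the 10 probes reached 4-fold on every array against 7.3% of all probes. With normexp background correction and an offset, 1 of the 10 probes reached 2-fold on every array against 1.87% of all probes. All 100 values stayed above 0. C10-413 was the lowest array of every member probe in that setting. The bright Neurod2 probe A_51_P379341 fell there from 2.83 to 0.85, and the cause was not tested. The members' median of gene medians was 3.57, where the median over all genes was 0.06. Since the dyes were never swapped, a dye effect of a probe and its ratio cannot be told apart, and a ratio against a reference had no second group to test.

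On all 10 arrays the Cy-5 signal of each of the 10 probes was well above background, and no member spot carried an outlier flag. In Cy-3 only 5 of the 10 were well above background on all arrays, and 22 of the 100 values rested on a Cy-3 signal that was not. For those values the ratio is set partly by background, so a bound was also computed. It used the lowest Cy-3 signal well above background on that array in place of the probe's own where this was higher. The bound is a convention and not a strict lower limit, since some signals not well above background exceeded it. Neurod6 on C10-437 had 44.7 in Cy-3 where that lowest signal was 38.6. In what follows, "at least" with a fold given for a single gene refers to this bound, also for genes of other lists. Counts of probes or genes at least 2-fold higher or lower on every array use the processed ratio itself. They do not require a Cy-3 signal well above background.

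**Figure D1:**
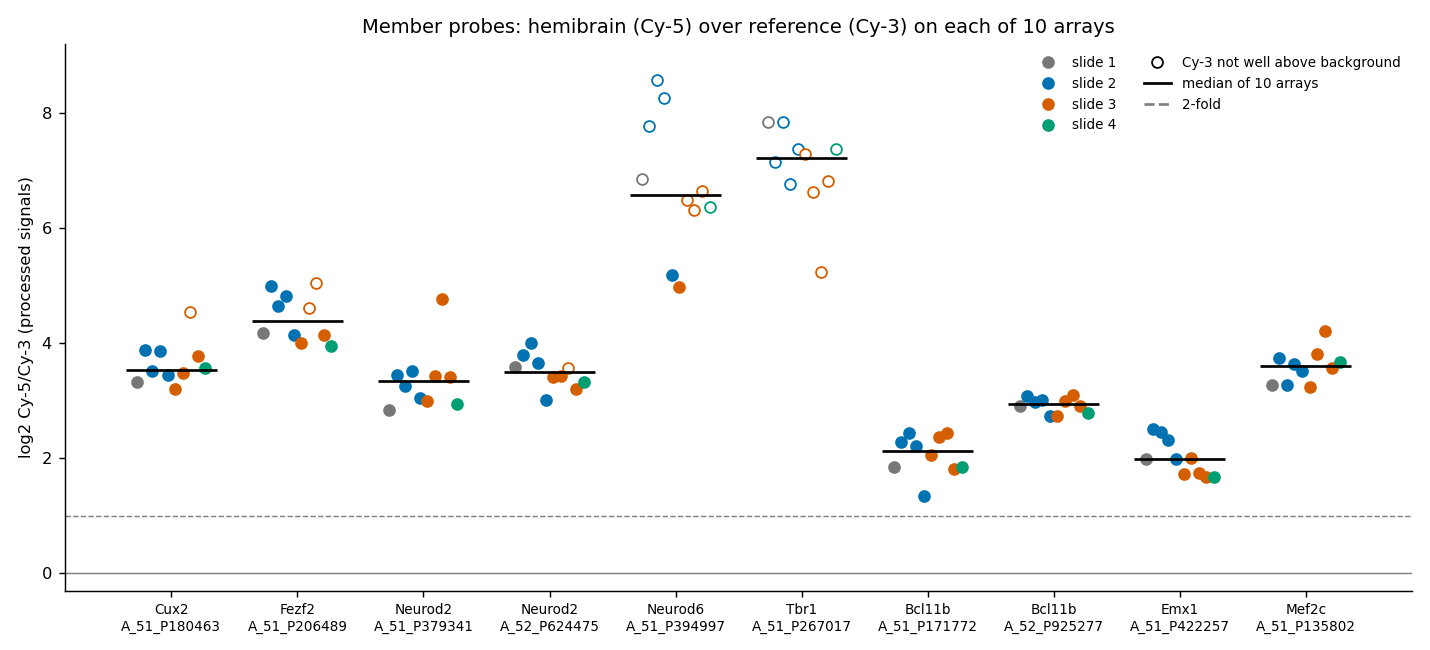
Log2 Cy-5/Cy-3 (vertical axis) of the 10 member probes (horizontal axis), 1 point per array, coloured by slide, with a black line at the median of 10 arrays and a dashed line at 2-fold. Open points had a Cy-3 signal not well above background. All 100 points lie above the dashed line, and the widest spreads are those of Neurod6 and Tbr1, where most points are open.

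Emx1, a homeodomain factor of the dorsal telencephalon and its excitatory lineage, had the lowest median ratio among the members. Its log2 ratio was 1.67 at the lowest, 1.99 at the median and 2.50 at the highest of the 10 arrays, a median 3.97-fold. C10-415, C10-416 and C10-417 were the high arrays, and C10-435 and C10-437 the low ones. Both dyes were well above background throughout, so each of the 10 ratios was measured on both sides. Over all probes, 11.5% had a higher median ratio. Its relative Emx2, a homeodomain factor of cortical progenitors, had a median of 0.80 and a range of 0.53 to 1.20, so that even the highest Emx2 array lay below the lowest Emx1 array. The ranges of the pair overlapped where background was subtracted with a floor or corrected by normexp, an alternative background model.

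Neurod2, a basic helix-loop-helix factor of young and mature excitatory neurons, was a median 10.1-fold and 11.3-fold higher in hemibrain by its 2 probes. The brighter one, A_51_P379341, ran from 2.83 through a median of 3.34 to 4.77. Its highest value was that of C10-434, far above the next at 3.52 on C10-417, and the Cy-3 signal of that spot was 373.1 where the median over arrays was 1880. The dimmer one, A_52_P624475, ran from 3.01 through 3.50 to 4.00, with C10-416 highest and C10-423 lowest. Both probes are annotated to the same transcript, and their difference ran from -0.75 to 1.20 over the arrays with a median of -0.24. Without C10-434 it ran from -0.75 to 0.20, so the widest disagreement between them was on that array.

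Neurod6, a closely related factor of cortical and hippocampal excitatory neurons, had the widest range of the members. Its ratio was 4.97 at the lowest, 6.57 at the median and 8.57 at the highest. The hemibrain signal took little part in that spread, with Cy-5 signals of 1322 on C10-434 and between 2681 and 4034 on the other 9 arrays. The reference signal ran from 8.75 to 104.6, and it was well above background on 2 arrays alone, C10-423 and C10-424. These were the arrays of the lowest ratios, 5.19 and 4.97. As a bound, Neurod6 was at least 20.1-fold higher at the lowest and 66.9-fold at the median array, and at least 106.3-fold on C10-416, with the values of C10-423 and C10-424 measured rather than bounded.

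The relatives of Neurod2 and Neurod6 gave no pattern that could be read from both dyes. Neurod1, which acts in newborn neurons of hippocampus and cerebellum, had a median ratio of 3.86 and ran from 0.19 to 5.07, with Cy-5 well above background on 9 arrays and Cy-3 on 0. Neurod4, a factor of neurogenesis, had a median of 0.06 with neither dye well above background on any array, which gives no ratio to compare.

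Tbr1, a T-box factor of layer 6 neurons that project to the thalamus, was higher in hemibrain on all 10 arrays by a ratio that could only be bounded. As computed the log2 ratio was 5.23 at the lowest, 7.22 at the median and 7.85 at the highest. Its reference signal was not well above background on any array, so the size of the ratio above its bound was not measured. As a bound, hemibrain was at least 10.5-fold higher on the lowest array, C10-434, at least 44.4-fold at the median and at least 68.5-fold on the highest, C10-437. Cy-5 signals were 690.3 on C10-434 and between 1290 and 2646 on the other arrays. The other T-box gene of this lineage, Eomes, which marks intermediate progenitors, had a median of 3.79 and a range of 2.58 to 4.54, with Cy-3 well above background on 1 array.

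Fezf2, a zinc finger factor that directs layer 5 neurons toward brainstem and spinal cord, was a median 21.0-fold higher. It ran from 3.95 on C10-437 through 4.39 to 5.05 on C10-434. The second highest array, C10-415, reached 5.00, so the top of the range did not rest on C10-434. Cy-3 was well above background on 8 arrays, and with bounds for C10-425 and C10-434 the lowest value became 3.09, that of an array whose own ratio had been the highest. Fezf1, its paralog in olfactory and hypothalamic development, had a median of 2.59 and ran from 0.36 to 3.35, with Cy-5 well above background on 6 arrays and Cy-3 on 0.

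Bcl11b (also called Ctip2), a zinc finger factor that acts downstream of Fezf2 in layer 5, had 2 probes that gave different ratios. The brighter one, A_51_P171772, ran from 1.35 on C10-423 through 2.13 to 2.43 on C10-416, a median 4.36-fold. The second, A_52_P925277, ran from 2.74 through 2.94 to 3.10, a median 7.67-fold and the narrowest range of any member probe. The first was lower than the second on all 10 arrays, by 0.54 at the least, 0.81 at the median and 1.39 at the most on the log2 scale. Each probe is annotated to its own RefSeq transcript of the gene, and both were well above background in both dyes on every array. Its paralog Bcl11a, which is used by deep layer and other cortical neurons, had a median of 3.42 over the 8 arrays with a value.

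Bcl11b is also a defining gene of striatal projection neurons and of T cells. Of 8 striatal markers, 7 were at least 2-fold higher in hemibrain on every array. The lowest of the 7 by median was the dopamine receptor Drd2 at 2.54, and the dopamine receptor Drd1 was at least 48.1-fold higher at the median array, with Cy-3 well above background on 0 arrays. The other marker, Pde10a, had a median of 1.62 and a lowest array of 0.76, and the Cy-5 signal of all 8 was well above background throughout. Of 5 T cell markers 0 were at least 2-fold higher on every array. On every array 2 were at least 2-fold lower, Lck at -2.96 and Cd3g, a chain of the T cell receptor complex, at -4.75. Cy-5 was well above background on 9 arrays for Lck and on 3 for Cd3g, so the size of the Cd3g ratio was largely not measured. The summed Cy-5 signal of the T cell markers was 851.7 to 1691 and none was dim in Cy-5 on every array. How much of the Bcl11b signal came from striatum was not tested.

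Cux2, a homeodomain factor of upper layer neurons, was a median 11.6-fold higher. Its ratio ran from 3.20 on C10-424 through 3.54 to 4.54 on C10-434. The next highest was 3.88 on C10-415, and the Cy-3 signal of C10-434 was not well above background, at 27.0 against a median of 152.8. With a bound for that array the highest value was 3.88 and the lowest stayed at 3.20. Cux1, its paralog, which is used in upper layers and in many tissues outside the brain, was on the other side of 0, with a median of -0.73 and a range of -1.03 to -0.45 over 9 arrays, and it stayed below 0 on every array under each normalization tried.

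Mef2c, a MADS-box factor that ties neuronal activity to synapse number in cortical neurons, was a median 12.1-fold higher with both dyes well above background on all arrays. It ran from 3.23 on C10-424 through 3.60 to 4.21 on C10-434. The next highest was 3.81 on C10-425, and the range without C10-434 was 0.58. Its paralogs went the other way, with medians of -1.63 for Mef2a and -0.55 for Mef2d, both factors of many tissues, and neither Mef2a nor Mef2d had an array above 0. Both medians stayed below 0 under every normalization tried, though for Mef2d the highest array passed 0 with loess (0.17), subtraction (0.11) and normexp (0.19). Mef2c is also used in vessels, muscle and microglia. Of 7 endothelium and muscle markers 3 were at least 2-fold higher on every array and 2 lower, from the smooth muscle actin Acta2 at -2.25 to the tight junction gene Cldn5 at 5.18. Of 5 microglia markers 2 were higher on every array, and the list ran from Tmem119 at 0.12 to P2ry12, at least 28.4-fold higher at the median array with Cy-3 well above background on 0 arrays. The part of these cells in the Mef2c signal was not tested.

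**Figure D2:**
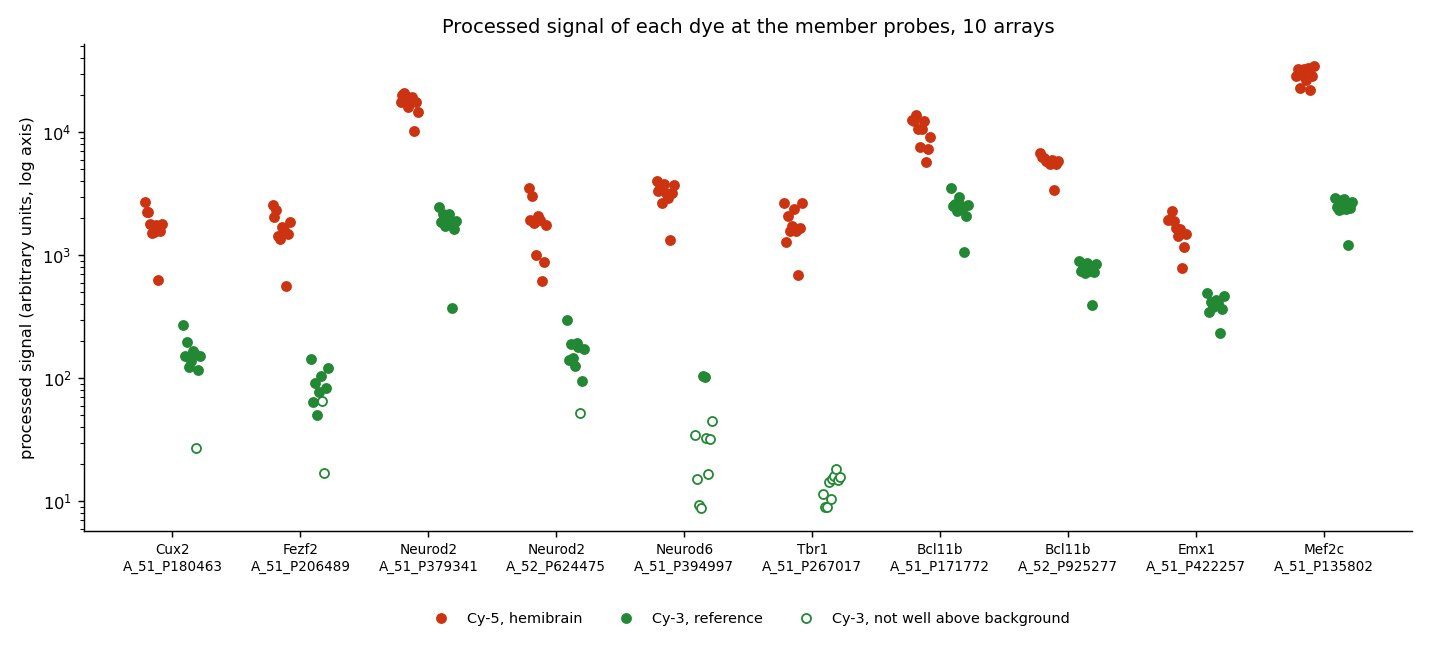
Processed signal in arbitrary units on a log axis (vertical) of each member probe (horizontal), with 1 red point per array for Cy-5, hemibrain, and 1 green point for Cy-3, reference; open green points were not well above background. Cy-5 lies above Cy-3 at every probe, and all Tbr1 and most Neurod6 reference signals are open. Heights are not compared between probes.

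Ordered by median ratio, Tbr1 and Neurod6 came first, Fezf2 next, then Mef2c, Cux2 and Neurod2 close together, with Bcl11b and Emx1 last. Most neighbours in this order overlapped in range. The exception was Neurod2 A_51_P379341, lowest at 2.83, above Bcl11b A_51_P171772, highest at 2.43, and the second Bcl11b probe overlapped Neurod2. The ranges of Mef2c, Cux2 and both Neurod2 probes overlapped almost wholly, as did those of Bcl11b A_51_P171772 and Emx1. With Cy-3 signals at background the order of Tbr1 and Neurod6 was not settled, since their bounds at the median array were 44.4-fold and 66.9-fold. A ratio is a share against the reference, so this order is not one of abundance in the brain.

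The members' list median of 3.57 lay above those of the other regulator lists and below those of neuron, astrocyte and oligodendrocyte markers. It also lay below the list medians of striatal markers (4.05), GABAergic markers (4.10) and genes of excitatory cortical neurons (4.96). Of 10 other upper layer regulators 6 were at least 2-fold higher on every array, with a list median of 3.09 and a spread from Mef2a at -1.63 to Bhlhe22, a helix-loop-helix factor of upper layers, at least 59.7-fold higher at the median array. Of 12 other deep layer regulators 4 were higher and 1 was lower, with a median of 1.32, from Zfpm2 at -2.22 to Bcl11a at 3.42. Bcl11a had a value on only 8 arrays and so could not be counted. Of 13 regulators of pallial progenitors and early neurons 4 were higher, with a median of 1.03, from Nfib at 0.03 to the stem cell factor Sox2, at least 51.9-fold higher at the median array. Cy-3 was well above background on 0 arrays for Bhlhe22 and for Sox2. These lists were chosen with results of the same arrays known, and their differences from the members were not tested.

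Markers of mature cells were set beside the members, from lists also chosen with results of these arrays known. Most lists of brain cells had high medians, and those of thalamic and subcortical neurons (0.54) and microglia (1.06) were lower. The 6 neuron markers all had Cy-5 signals well above background on every array, and 5 were at least 2-fold higher on every array, with a median of 5.53 from Tubb3 at 3.11 to Map2 at 8.32, which had a value on 8 arrays. Of 9 genes of excitatory cortical neurons 6 were higher, all 6 that had a value on every array, with a list median of 4.96. Slc17a7, the vesicular glutamate transporter of these neurons, was at 4.10. GABAergic neuron markers were higher in 7 of 9 (median 4.10), astrocyte markers in 4 of 5 (6.59) and oligodendrocyte markers in 5 of 5 (5.22). The GABAergic marker Gad2, at 6.42, had a value on only 9 arrays and so could not be counted. Of 4 markers of thalamic and other subcortical excitatory neurons 1 was higher, Slc17a6 at 5.18, with a median of 0.54.

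**Figure D3:**
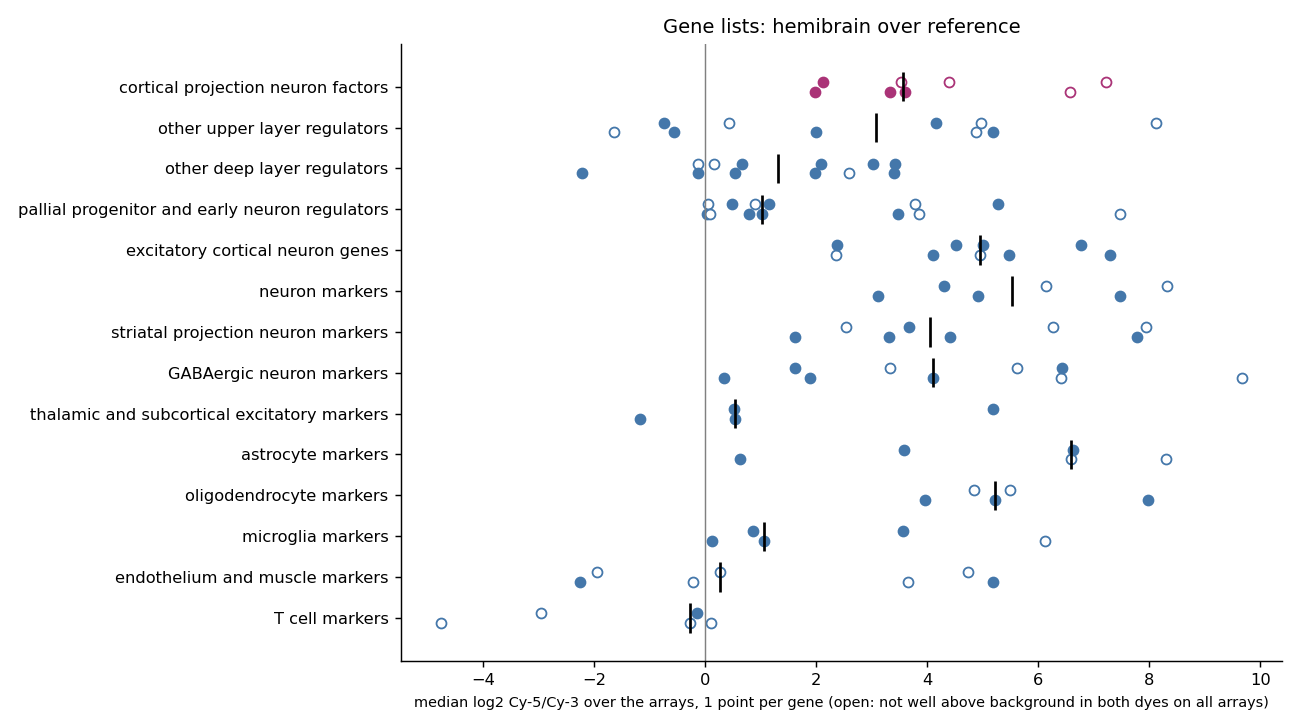
Median log2 Cy-5/Cy-3 over the arrays (horizontal axis), 1 point per gene, for the 8 cortical projection neuron factors (purple) and 13 other lists (blue), with a black line at each list's median. Open points were not well above background in both dyes on all arrays. All 8 purple points lie right of 0, and the regulator lists reach to both sides of it or close to it.

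C10-434 stood apart from the other arrays before any member was read. In Cy-5, 49.8% of its probes were well above background where the other 9 arrays had 68.2% to 76.9%, and in Cy-3 61.9% against 70.3% to 79.1%. It gave the highest ratio for Cux2, Fezf2, Mef2c, Neurod2 A_51_P379341 and Bcl11b A_52_P925277, and the lowest for Tbr1. Without it all 10 probes still reached at least 2-fold on each remaining array, and the share of all probes that did so is not given.

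The members did not move together from array to array by more than 0.41 on average on the log2 scale. Each gene's ratios were centred on the gene's own median and averaged over the 8 genes. That mean was highest on C10-416 (0.41), C10-415 (0.38) and C10-417 (0.33), and lowest on C10-424 (-0.41) and C10-423 (-0.34). On C10-415 and C10-417, 7 of the 8 genes were above their own median, and on C10-424, 7 were below. The share of all genes above or below their own median on these arrays was not computed. Whether the counts are particular to the members was therefore not tested. Neurod6 gave the largest single parts of that mean on these arrays, 2.01 on C10-416 and -1.60 on C10-424, and its reference signal was at background on the first and not on the second.

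**Figure D4:**
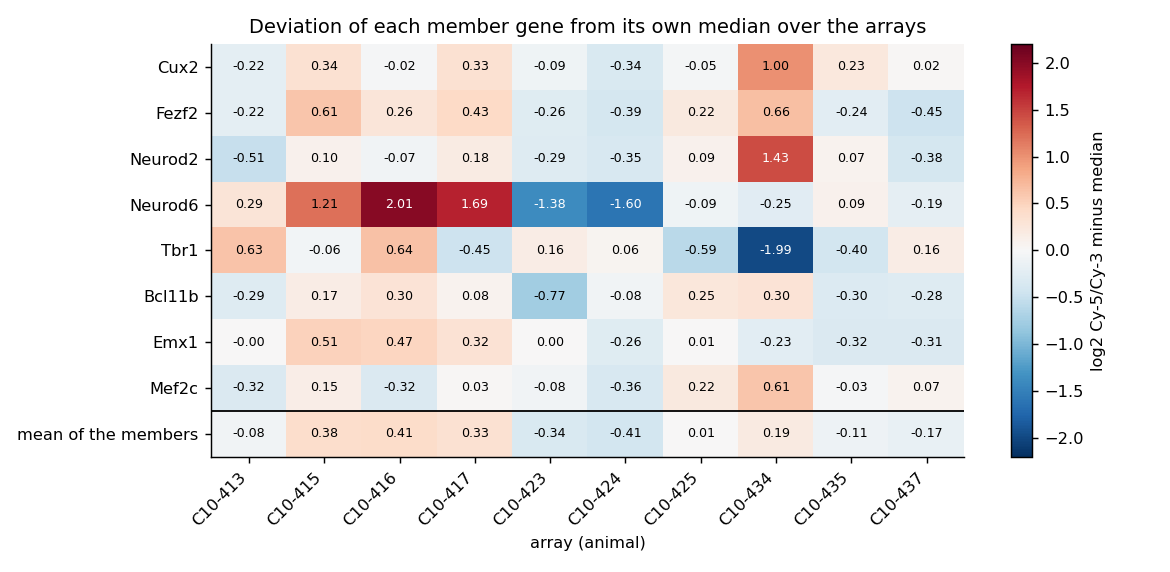
Log2 Cy-5/Cy-3 of each member gene (rows) on each array (columns, by animal) minus the gene's median over the arrays, with the mean of the 8 genes in the last row; red is above the median and blue below. Neurod6 and the C10-434 column hold the strongest colours, among them 2.01 for Neurod6 on C10-416 and -1.99 for Tbr1 on C10-434.

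Among 10496 genes well above background in both dyes on all arrays, 4858 ranged at least as widely over the arrays as the mean of the members, which ranged over 0.82. The 5 whose centred ratios lay closest to it, by root mean square difference, were Ank1 (0.103), Ier5l (0.103), Clec2l (0.154), Dpf1 (0.154) and Tlx2 (0.160). Without C10-434 they were Ier5l, Ank1, Zfp3, Camkv and Rprml, so 2 of the 5 were the same. The members themselves lay at 0.202 for Emx1 to 0.893 for Neurod6 from their own mean. That this is farther than the 5 genes follows from how those were picked, and the members did not have to pass the filter on both dyes. Of the 4858 genes, 21.6% lay closer than the median member, and of 4119 genes without C10-434, 4.56% did. The closest genes had median ratios from -0.66 for Ier5l to 4.13 for Ank1, a likeness in pattern over arrays that share slides and labelling and not in ratio.

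Slides were the only batch holding several arrays, and the comparison of slides asks how far the members vary with slide, animal, labelling and possibly diet, which cannot be told apart here. C10-424, C10-425, C10-434 and C10-435 shared slide 3, and C10-415, C10-416, C10-417 and C10-423 shared slide 2. None of the 10 member probes differed at an adjusted p under 0.05 in limma, against 30 of 40299 probes (0.0744%). At an unadjusted p under 0.05, 1 of the 10 did, against 10.0% of all probes. The ranges of the 2 slides overlapped for every member probe. The share of all probes with such an overlap was not computed, so this is not a result about the members.

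The probe with that unadjusted p was Emx1. On slide 2 its ratios were 1.99 to 2.50 and on slide 3 they were 1.67 to 2.0, so the slides touched at a single pair of arrays. The difference, slide 3 minus slide 2, was -0.53 with a standard error of 0.17 and a 95% interval of -0.92 to -0.14 (limma, adjusted p = 0.32). Over 14 alternatives its adjusted p ran from 0.184 to 1.0. The difference shrank to -0.15 with background subtraction and to -0.16 with normexp, and the unadjusted p under 0.05 was lost in both.

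For the other members the interval included 0. Neurod6 had the widest one, with a difference of -1.34 and an interval of -2.95 to 0.26 (limma, adjusted p = 0.611). Slide 2 held values from 5.19 to 8.57 and slide 3 from 4.97 to 6.65, most of them on a reference signal at background. Without C10-423 the Neurod6 difference was -2.10 (limma, adjusted p = 0.117). Tbr1 differed by -0.80 with an interval of -1.75 to 0.16 (limma, adjusted p = 0.613), and without C10-434 by -0.38. The remaining 7 probes differed by -0.21 to 0.33, and the narrowest interval was that of Bcl11b A_52_P925277, -0.38 to 0.34.

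**Figure D5:**
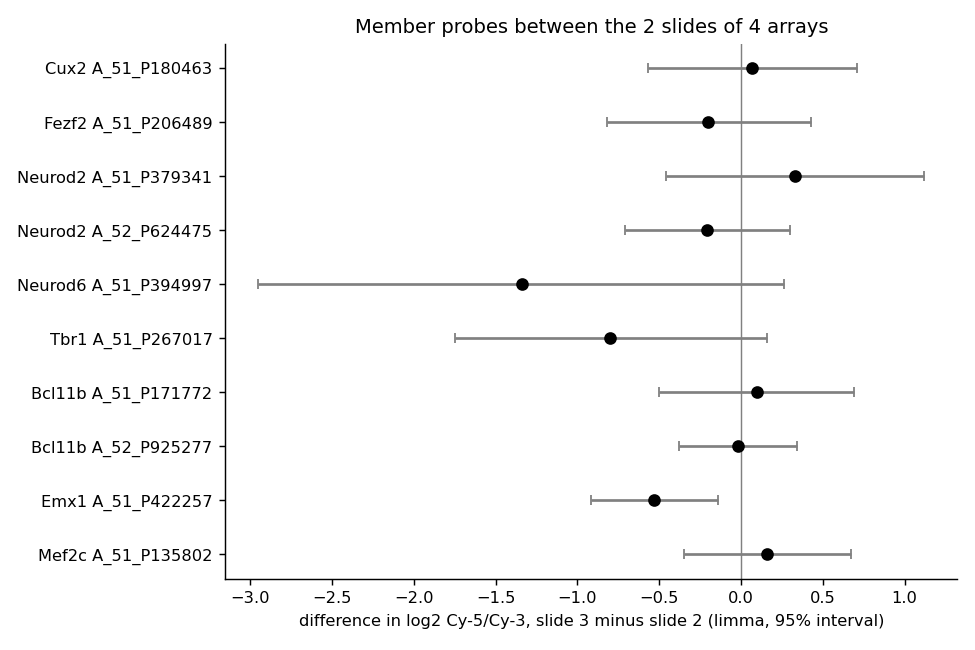
Difference in log2 Cy-5/Cy-3 between slide 3 and slide 2 (horizontal axis), 4 arrays each, for the 10 member probes (vertical axis), with 95% intervals from limma. The interval of Emx1 lies wholly below 0, from -0.92 to -0.14, and the other 9 cross 0.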

How the data were processed

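RNA from the left hemibrains of 10 mice was measured on Agilent dual dye arrays. The authors deposited the output of Feature Extraction 10.10.1.1 for each array, with intensities of each dye on a linear scale, the processed intensities after background correction and dye normalization, the log10 ratio of each spot, and flags. They also deposited a table of log2 values, which equalled the log2 ratio of processed signals within 0.001 for 100% of probes on every array, so that its scale and direction are known and no further centring was applied in it. The methods name LOWESS normalization within arrays.

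From these files the log2 of Cy-5 over Cy-3 was taken from the processed signals, leaving out control spots and spots with an outlier flag, and averaging the spots of a probe. The flag for a signal well above background was given to a probe if 0.5 or more of its spots had it. Names came from RefSeq of GRCm38.p6, used for names and promoters alone; the array files name mm9 and none of their coordinates are printed. Of several probes to a gene, the one with the highest mean Cy-5 signal was used. Slides were compared with limma and Benjamini-Hochberg adjustment over all probes. The fit was also run on simulated independent values with a known shift. Those values held no effects shared by an array, so that run does not check the test under such effects. Arrays were taken as separate animals by their titles, and the number of arrays limits the precision. Alternatives were loess (span 0.3), median centring, subtraction with a floor of 0.5 and an offset of 50, normexp on median signals with the same offset, the value table, filters on dim probes, all probes of a gene averaged, and arrays left out. The members, the 13 other lists (98 genes) and the rules were chosen with earlier results of these data known. Named were all member probes, relatives of the members, the highest and lowest gene of each list, and the 5 genes closest to the members' mean. Versions were R 4.3.3, limma 3.58.1, Python 3.11.15, numpy 2.4.6 and pandas 2.3.3.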

Additional observations from a re-analysis of the deposited data

Results flagged for a closer look

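Of the 10 member probes, 3 had an array set apart from the other 9 by a gap larger than Dixon's limit for the share of the whole range. Unrelated probes would give 0.5 of 10 by chance, but these probes share their arrays. The share of all probes with such a gap was not computed, so the count is not a result about the members. The array was C10-434 each time. Cux2 A_51_P180463 had 4.54 there, the highest of its 10 values, and Neurod2 A_51_P379341 had 4.77, also the highest. Tbr1 A_51_P267017 had 5.23, the lowest. The reference signal was not well above background for Cux2 and Tbr1 on this array, and was for Neurod2. Fewer probes of this array were well above background than on any other, in both dyes, and the part of this in the 3 values was not tested.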

How the results depend on the processing

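Loess, median centring, the value table and leaving out C10-434 each kept all 10 member probes at least 2-fold higher on every array. The share of all probes was 13.8% with loess, 12.3% with median centring and 12.9% in the value table, and is not given without C10-434. The median over the probes fell to 2.64 with subtraction, floor and offset, and to 2.54 with normexp. With normexp 1 probe, Mef2c, kept the 2-fold level on every array, where C10-413 was lowest for all 10 probes but still above 0 (0.10 for Emx1), and the share of all probes fell to 1.87%. With subtraction 8 probes kept it, against 7.1% of all probes, and C10-434 was lowest for 8 of the 10. An offset pulls ratios of dim spots toward 0 by construction. The fall on C10-413 with normexp also took in bright probes, such as Mef2c from 3.27 to 1.27, and its cause was not tested. Requiring both dyes well above background left 5 member probes, and all 5 kept it, against 15.7% of the 17612 probes left. Averaging all probes moved Bcl11b from 2.13 to 2.50.

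Between slides, the 30 probes called over the whole array became 1 with subtraction, 0 with normexp and 68 with the Cy-5 filter, and leaving out an array gave 0 to 18, the 18 without C10-423; the cause was not tested. Calls among the members were 0 under all 14 alternatives in limma, with 0 to 3 at an unadjusted p under 0.05. No member difference that changed sign was called. With subtraction these were Fezf2 (0.07), Neurod2 A_52_P624475 (0.02), Neurod6 (0.23), Tbr1 (0.11) and Bcl11b A_51_P171772 (-0.04). With normexp they were Fezf2 (0.01), Tbr1 (0.10) and Bcl11b A_52_P925277 (0.03). With an array left out, Cux2 ran from -0.19 to 0.25, Neurod2 A_51_P379341 from -0.04 to 0.55, Mef2c from -0.00 to 0.32, Bcl11b A_51_P171772 from -0.14 to 0.22 and Bcl11b A_52_P925277 from -0.09 to 0.04. No paired analysis was possible because the labels give the arrays no groups. Reference signals at background limit Tbr1 and Neurod6 to bounds.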
